A study of Mus musculus with 8 samples.

Results

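The make-up of the RNA in untreated white quadriceps was described from 4 of the 8 libraries of the series, those of the control mice. Members were chosen by label alone, as the libraries from chow-fed mice labelled Loxp/Loxp, and no genotype contrast was made. The control mice were male, 11 to 14 weeks old, fed Purina 5001 chow, and carried loxP sites with no Cre named. The other 4 libraries came from male, chow-fed mice of the same ages labelled CKM Cre with Acot2 knocked out in muscle, in which Cre is driven by the muscle creatine kinase promoter. They were used only to see whether a gene that varied between control mice also varied within a second set of animals. Quadriceps was taken in the morning, RNA was extracted with a Norgen kit for animal tissue, and libraries were made with the TruSeq Stranded RNA kit. Each column is headed by its own animal number, so the 4 control libraries are treated as 4 mice.

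The white part of the quadriceps is built mainly of fast glycolytic fibres, which contract quickly, fuel short bursts from glycogen and creatine phosphate, and hold few mitochondria. Each fibre is packed with sarcomeres, in which myosin thick filaments pull on actin thin filaments between Z-discs, titin spans the space from Z-disc to M-band, and troponin and tropomyosin switch the thin filament on when calcium leaves the sarcoplasmic reticulum. Most contractile and glycolytic proteins exist as several paralogs, copies of one ancestral gene that are used in different fibre types or tissues, and the paralog that dominates is a textbook mark of fibre type.

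The muscle fibre marker genes Ttn, Myh4 and Ckm were all among the 7 genes with the most reads. The 150 bases before the start of Ttn, Myh4 and Ckm, and of Acta1 and Mylpf as the most abundant actin and regulatory light chain, are shown because these promoters stand before the leading transcripts of the tissue. The sequences are from RefSeq on GRCm38.p6, 5′ to 3′ on the strand of the gene. Capitals mark the letters TATAA, the E-box letters CAGCTG, and a match to the CArG box, the element bound by serum response factor. A match is a match of letters only.

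Ttn: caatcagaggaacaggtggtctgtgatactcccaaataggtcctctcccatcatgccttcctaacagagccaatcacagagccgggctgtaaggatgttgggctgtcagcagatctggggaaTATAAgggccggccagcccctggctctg
Myh4: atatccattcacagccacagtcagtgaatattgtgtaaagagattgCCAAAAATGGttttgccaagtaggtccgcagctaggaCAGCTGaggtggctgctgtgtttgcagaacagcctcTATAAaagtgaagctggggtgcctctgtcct
Ckm: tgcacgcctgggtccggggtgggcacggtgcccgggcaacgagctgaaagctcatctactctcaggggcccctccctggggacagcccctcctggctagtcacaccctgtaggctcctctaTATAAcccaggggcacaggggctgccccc
Acta1: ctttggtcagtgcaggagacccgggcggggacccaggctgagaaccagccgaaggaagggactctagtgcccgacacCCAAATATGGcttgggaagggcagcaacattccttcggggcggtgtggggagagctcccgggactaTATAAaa
Mylpf: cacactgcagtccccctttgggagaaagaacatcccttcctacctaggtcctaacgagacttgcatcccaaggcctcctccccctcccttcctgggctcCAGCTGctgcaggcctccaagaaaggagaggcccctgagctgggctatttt

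These lie at chr2:76982548-76982697 on the minus strand for Ttn, chr11:67237662-67237811 on the plus strand for Myh4, chr7:19410944-19411093 on the plus strand for Ckm, chr8:123894776-123894925 on the minus strand for Acta1 and chr7:127211458-127211607 on the plus strand for Mylpf. Counted from the start, TATAA began at position -28 in Ttn, -31 in Myh4 and -29 in Ckm, and at -7 in Acta1. Myh4 also held CAGCTG at -67 and a CArG match at -104. Acta1 held a CArG match at -73, and Mylpf held CAGCTG at -51 with no TATAA in these 150 bases.

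The values were read counts divided by 1 factor per library and then logged. After the log was undone, 1 counted read was worth between 0.955 and 1.12 normalized reads, and the libraries held 35808519, 33112406, 36234859 and 34220248 reads assigned to genes in control replicates 1 to 4. A gene's share is given in 2 ways. A percent of reads says how much of the sequencing a gene took, and it grows with the length of the transcript. Reads per kilobase divide by the length of a gene's merged exons, and only this scale compares levels between genes. In bulk tissue, fewer cells of a type and less RNA per cell cannot be told apart. No test between groups was run, because a single group has no contrast. Errors are SD over the 4 libraries. Replicate 4 stood apart in 1 ribosomal RNA, replicates 2 and 4 in genes of fat cells, and replicates 2 and 3 in genes of oxidative fibres, as described further on; the counts of reads of every pair of libraries differed by more than sampling noise, so none was a copy of another.

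The RNA of white quadriceps was concentrated in few genes. Of 54091 genes in the table, 30189 had no read in any control library and 9690 had a mean of at least 100 normalized reads. Averaged over the libraries, 24 genes held 50% of all reads, and the number was 24, 20, 29 and 22 in replicates 1 to 4. It took 2627 genes to hold 90%. The 10 leading genes held 41.1 ± 1.38% of reads, the leading 100 held 61.8 ± 1.36% and the leading 1000 held 80.4 ± 0.67% (SD, n = 4). With the mitochondrial genome left out, 37 genes held 50% of reads. Control replicate 2 was the most concentrated library and replicate 3 the least on each of these counts of genes.

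Ttn, which encodes titin, the spring that runs from Z-disc to M-band, took more reads than any other gene. It had 3687980, 5001744, 4068878 and 4571384 normalized reads in replicates 1 to 4, which came to 11.96 ± 1.36% of a library. Its length carried this rank. The merged exons of Ttn measured 116825 bases, and per kilobase the gene stood at 37085 ± 4917 normalized reads, rank 22 among nuclear protein-coding genes. Nebulin (Neb), the giant ruler of the thin filament, moved in the same way, from rank 4 by reads with 2.32 ± 0.175% to rank 23 per kilobase.

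Myh4, the type 2B myosin heavy chain and the motor of the fastest mouse fibres, ranked second by reads and first per kilobase among nuclear protein-coding genes. Its values were 3167470, 3400934, 2743525 and 3030448 normalized reads, 8.52 ± 0.569% of a library. Replicate 2 was highest and replicate 3 lowest for Myh4, and the highest was 1.24 times the lowest. Per kilobase Myh4 stood at 512898 ± 45643 normalized reads and skeletal actin, Acta1, at 486787 ± 34716. The ranges of the 2 genes over the libraries overlapped, and the ratio of Acta1 to Myh4 per kilobase was 0.951 ± 0.0391. The next genes per kilobase were the fast troponin T gene Tnnt3, the calcium buffer parvalbumin (Pvalb), the fast troponin C gene Tnnc2 and Ckm. Of the 30 genes with the most reads, 20 were also among the 30 highest coding genes per kilobase.

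**Figure D1:**
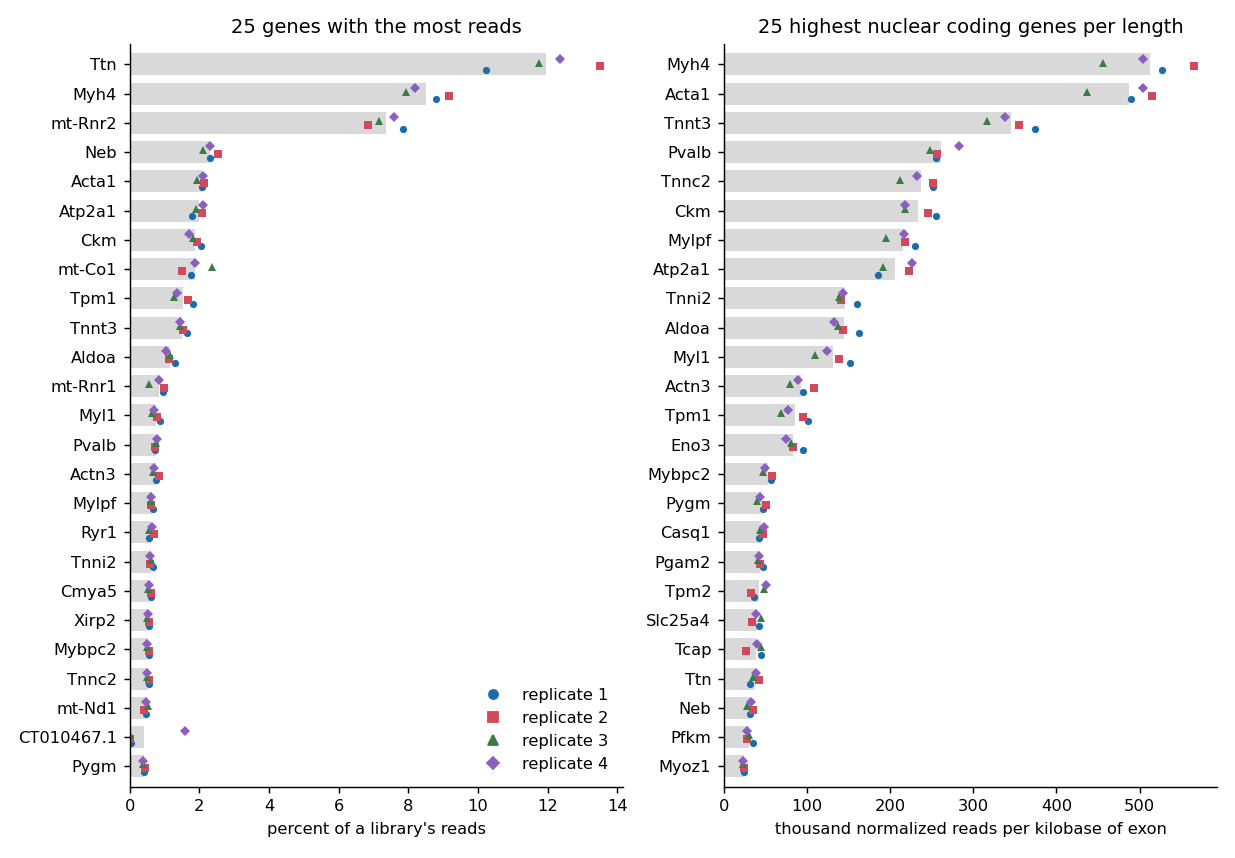
The left panel plots the percent of each library's reads taken by the 25 genes with the most reads, and the right panel the normalized reads per kilobase of merged exon, divided by 1000, for the 25 highest nuclear protein-coding genes. Grey bars are means over the 4 control libraries and points are the libraries; Ttn leads by reads with 11.96% and is 22nd per kilobase, where Myh4 and Acta1 lead.

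Sarcomere genes, in lists of 20 thick filament, 19 thin filament, 6 titin and M-band and 37 Z-disc genes, took 34.9, 38.01, 34.4 and 35.6% of reads in replicates 1 to 4, a mean of 35.7 ± 1.60%. By reads the titin and M-band list was the largest of the 4 with 12.6 ± 1.37%, followed by the thick filament with 11.0 ± 0.377%, the thin filament with 9.01 ± 0.512% and the Z-disc with 3.14 ± 0.0742%. Per kilobase, over nuclear protein-coding genes, the order changed. The thin filament then held 18.6 ± 0.888%, the thick filament 12.6 ± 0.584%, the Z-disc 3.69% and titin with the M-band 0.705%. The sarcomere as a whole held 35.6 ± 1.49% of nuclear coding reads per kilobase, a total that leaves out the mitochondrial genome. Over all genes, with the mitochondrial genome and non-coding RNA in the total, the sarcomere held 23.2 ± 0.643% of reads per kilobase and the mitochondrial genome 25.02 ± 0.972%.

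Within the thick filament, the light chains and binding protein stood below the heavy chain. Mylpf, the fast regulatory light chain, had 244148, 231234, 207693 and 230450 normalized reads and stood at 0.420 ± 0.0237 of Myh4 per kilobase. Myl1, the fast essential light chain, stood at 0.256 ± 0.0225 of Myh4, and the fast myosin-binding protein C gene Mybpc2 at 0.103. In the assembled motor each heavy chain carries an essential and a regulatory light chain. Levels per kilobase depend on the exon model, and ratios between genes carry that uncertainty.

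Within the thin filament, the 3 fast troponin genes differed from each other in level by ratios that hardly moved between mice. Tnnt3 stood at 2.38 ± 0.101 times the troponin I gene Tnni2 per kilobase, and Tnnc2 at 1.63 ± 0.108 times Tnni2. Acta1 stood at 3.83 ± 0.200 times the sum of the tropomyosin genes Tpm1 and Tpm2. Of the Tnnc2 exon stretches, 47.9% are shared with the neighbouring Ube2c when both strands are searched. On its own strand, 0% of its exon bases lie under another gene. How the counts treated strand was not checked, so its level remains uncertain.

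Z-disc and cytoskeletal genes were led by Actn3, the fast fibre alpha-actinin that anchors actin, with 277321, 313715, 231940 and 258839 normalized reads. The large scaffold genes Cmya5 and Xirp2 followed by reads at 0.576 and 0.537% of a library. Desmin (Des), the intermediate filament that ties Z-discs together, took 0.161%, and its SD over the 4 libraries was 0.04 on the log2 scale. Telethonin (Tcap), the cap of titin at the Z-disc, ranked 21 per kilobase, with 42757, 25230, 42520 and 37645 normalized reads. Replicate 2 stood apart as the low library for Tcap, and the other 3 lay close together.

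Genes of calcium handling took 4.65 ± 0.241% of reads and 8.16% of nuclear coding reads per kilobase. Atp2a1, the fast calcium pump SERCA1 that refills the sarcoplasmic reticulum, had 644043, 774657, 663666 and 784818 normalized reads. Pvalb, a cytosolic calcium buffer of fast fibres, had 265287, 267280, 258122 and 294763. For Pvalb the highest and lowest mice differed little, with an SD of 0.08 on the log2 scale. Ryr1, the calcium release channel, took 0.611% of reads, and calsequestrin 1 (Casq1), the calcium store of the reticulum, took 0.244%. Per kilobase Atp2a1 stood at 20.4 ± 1.28 times Ryr1 and Pvalb at 5.77 ± 0.248 times Casq1. The median SD of the 31 calcium genes with a mean of at least 100 normalized reads was 0.0899 on the log2 scale, against 0.127 over all 9690 genes. The most variable of them was phospholamban (Pln), the brake on the slow fibre pump, with an SD of 0.97. Its share of the SERCA-regulating micropeptides was 6.20, 3.28, 2.13 and 1.32% in replicates 1 to 4. The slow fibre marker list was highest in replicate 3 instead. Of the Pln exon stretches, 56.2% also occur in other genes, mostly Gm47644, so its level is uncertain.

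The energy-supply genes of the cytosol were next. Ckm, the muscle creatine kinase that regenerates ATP from creatine phosphate, had 742380, 715900, 634384 and 634296 normalized reads, 1.88 ± 0.148% of a library. Replicates 3 and 4 were nearly equal and lower than replicates 1 and 2. Its mitochondrial partner Ckmt2 varied more, with 23872, 15386, 37029 and 27745, so that Ckm stood at 15.9, 23.7, 8.74 and 11.7 times Ckmt2 per kilobase. The 16 creatine kinase and adenylate genes took 2.25 ± 0.149% of reads. Ak1, the adenylate kinase of muscle cytosol, and Ampd1, the muscle AMP deaminase, both had an SD of at most 0.09 on the log2 scale.

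The 28 genes of glycolysis and lactate took 3.36, 2.93, 3.00 and 2.67% of reads, a mean of 2.99 ± 0.284%, and 5.33 ± 0.371% of nuclear coding reads per kilobase. The steps of the pathway differed widely in level per kilobase of merged exon, a scale that depends on the exon models. Per kilobase, in pathway order, hexokinase 2 (Hk2) stood at 2042 ± 202 normalized reads, glucose phosphate isomerase (Gpi1) at 3222 and phosphofructokinase (Pfkm) at 30425. Aldolase A (Aldoa) was the peak, at 144092 ± 13334, which is 70.8 ± 5.65 times Hk2. Triose phosphate isomerase (Tpi1) and Gapdh stood at 18884 and 19281, phosphoglycerate kinase (Pgk1) at 4787 and phosphoglycerate mutase 2 (Pgam2) at 43277. Of the exon stretches of Pgk1, 53.9% also occur in another gene, mostly its relative Pgk1-rs7, so its level is uncertain. Enolase 3 (Eno3), the muscle enolase, stood at 83489 ± 8251, pyruvate kinase (Pkm) stood at 18637 and lactate dehydrogenase A (Ldha) at 21837. Among these 11 genes Aldoa and Eno3 were the highest and Hk2 the lowest in each of the 4 libraries. The part of exon stretches also found in other genes was 25.8% for Pkm, 25.1% for Gapdh and 15.8% for Gpi1. It was 9.26% or less for the others apart from Pgk1.

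Glycogen genes took 1.17 ± 0.0745% of reads. Pygm, the muscle glycogen phosphorylase that releases glucose units from glycogen, led with 151556, 161580, 129958 and 140362 normalized reads. Phka1, the regulatory alpha subunit of phosphorylase kinase, took 0.122% of reads, with an SD of 0.22 on the log2 scale.

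The mitochondrial genome gave 11.9, 10.5, 11.5 and 11.8% of reads, a mean of 11.4 ± 0.597%. Most of the reads counted there were ribosomal RNA, with the 2 mitochondrial rRNA genes at 8.19 ± 0.501%. Several messengers with shared sequence had few counted reads, as given below. The balance of rRNA and messengers in the tissue is therefore uncertain. The large rRNA mt-Rnr2 took 7.36 ± 0.440% of reads and was the highest gene of all per kilobase. Among messengers, mt-Co1, a core subunit of cytochrome oxidase, had 635529, 557726, 819735 and 697676 normalized reads, and mt-Cytb, of complex III, had 127222, 117817, 128668 and 136108. Levels of several other mitochondrial messengers are uncertain. mt-Co2 and mt-Co3 were listed at means of 52.0 and 110 normalized reads, while 100% and 99.9% of their 50-base stretches also occur in other annotated genes. For mt-Nd4 and mt-Co1 the shared part was 62.2% and 51.1%, and for mt-Nd1 and mt-Cytb it was 0%.

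Nuclear genes of the mitochondrion were a smaller part. Oxidative phosphorylation, the TCA cycle, fatty acid oxidation, carriers and the mitochondrial ribosome together took 3.25, 2.68, 3.79 and 3.14% of reads, a mean of 3.21 ± 0.454%. Replicate 3 was highest and replicate 2 lowest, which was also their order for mt-Co1. Nuclear oxidative phosphorylation took 1.49 ± 0.226% of reads, and its 5 complexes kept 1 order of the libraries, with replicate 2 lowest and replicate 3 highest in each. Complex I genes took 0.427 ± 0.0618%, complex II 0.118%, complex III 0.180%, complex IV 0.224% and ATP synthase 0.491 ± 0.0731% of reads. Per kilobase the highest of these genes were Cox6a2, the muscle form of a cytochrome oxidase subunit, at 15798 ± 2439 normalized reads, and Atp5b, the catalytic subunit of ATP synthase, at 14599 ± 1607. Slc25a4, which exchanges ADP and ATP across the inner membrane, stood higher, at 40163 ± 4534, and at 2.83 ± 0.168 times the outer membrane pore Vdac1. The TCA cycle and pyruvate list took 0.744 ± 0.0988% of reads, and fatty acid oxidation 0.255 ± 0.0513%. In the last list the muscle carnitine palmitoyltransferase Cpt1b was listed at a mean of 85.8 normalized reads, and 81.4% of its exon bases lie under another gene on its strand, so its level is uncertain.

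Housekeeping and support genes made up small shares. The 89 cytosolic ribosome genes took 0.711 ± 0.042% of reads and 2.14% of nuclear coding reads per kilobase, translation factors 0.511 ± 0.0155%, and protein turnover with chaperones 0.723 ± 0.0474%. Extracellular matrix genes took 0.556 ± 0.0373%, membrane excitability 0.317% and the dystrophin complex with membrane repair 0.227 ± 0.00725%. For the ribosome genes the median part of the exon sequence that also occurs in another gene was 24.4%, so levels of single ribosome genes are uncertain. Among matrix genes, Col1a1, the main chain of fibrillar collagen, had 13655, 14072, 13202 and 27029 normalized reads. Replicate 4 was the high library for Col1a1, and the other 3 lay together. The 53286 genes in none of these lists took 35.1 ± 0.599% of reads. They included CT010467.1, an annotated ribosomal RNA of 2466 bases, with 18567, 8548, 2902 and 593792 normalized reads, or 1.60% of the library of replicate 4 and at most 0.0519% of each other library. Leaving it out of the total moved no class share by more than the spread between mice.

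**Figure D2:**
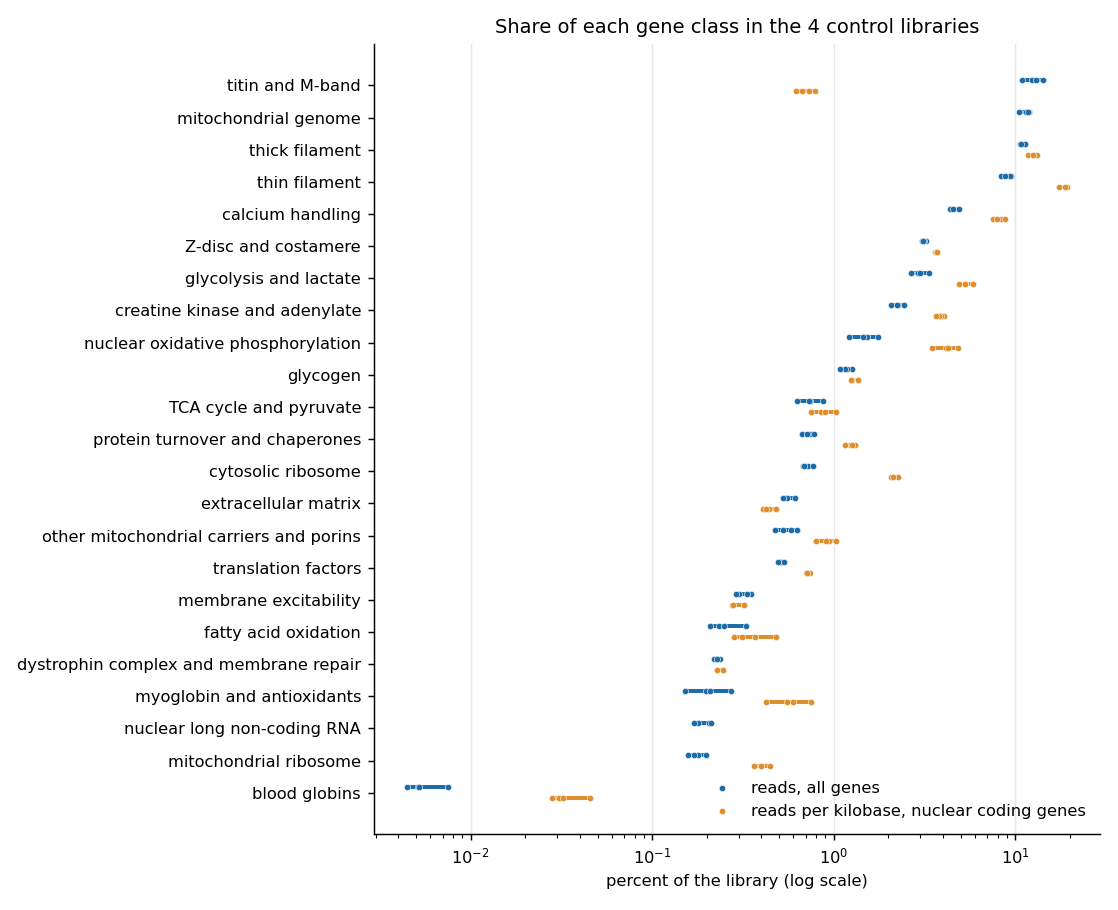
Each row is 1 gene class, with the 4 control libraries as points and a line from the lowest to the highest, on a log axis of percent of the library. Blue is the percent of reads over all genes and orange the percent of reads per kilobase over nuclear protein-coding genes; titin and M-band drop from 12.6 to 0.705% between the scales while the thin filament climbs from 9.01 to 18.6%, and the non-coding and mitochondrial genome classes have no orange points.

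Paralog choice was strongly one-sided. In 59 families of related genes, the share of the leading member was taken per kilobase. The leader held at least 99% in 20 families, at least 95% in 32 and at least 90% in 39, with a median of 95.4%. It held between 50 and 90% in 19 families and under 50% in 1. The median SD of the leader's share over the mice was 0.722 percentage points. The same member led in all 4 libraries in 58 families.

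In the families of myosin chains, troponins and alpha-actinin the fast skeletal member led. Tnnt3, Tnni2 and Tnnc2 each held 100% of their families after rounding, with their slow or cardiac relatives at 0.0104% or less. Myl1 held 99.6 ± 0.123% of the essential light chains and Mylpf 99.3 ± 0.114% of the regulatory ones. Myh4 held 96.4, 98.6, 91.4 and 93.6% of the adult myosin heavy chains, an SD of 3.16 percentage points, while Myh1, the type 2X heavy chain, held 4.10% and Myh2, the type 2A heavy chain, 0.900%. These 3 genes share part of their sequence, 18.9% of 50-base stretches for Myh4, 30.5% for Myh1 and 24.6% for Myh2. Actn3 held 96.9 ± 1.72% of the alpha-actinins over the slower Actn2. Mybpc2 held 94.0, 97.3, 81.8 and 85.2% against the slow form Mybpc1. Acta1 held 96.8 ± 1.31% of the actins, with cardiac actin (Actc1) next at 2.30%. Actc1 itself had 13809, 36809, 9267 and 16929 normalized reads, with replicate 2 as the high library.

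Other contractile families were shared between members. Tpm1 held 73.6, 74.3, 58.2 and 60.4% of the tropomyosins and Tpm2 most of the rest, so replicates 1 and 2 stood apart from 3 and 4. The M-band cross-linkers Myom1 and Myom2 were nearly even at 51.5 ± 1.06% and 47.5 ± 1.72%.

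Several calcium and energy families were nearly as one-sided as the troponins. Atp2a1 held 99.9% of the SERCA pumps, Ryr1 99.9% of the ryanodine receptors and Casq1 99.6% of the calsequestrins. Pfkm held 99.8%, Pgam2 99.9%, Eno3 99.7%, Pygm 99.8% and glycogen synthase 1 (Gys1) 99.8% of their families. Pkm and the muscle fructose bisphosphatase Fbp2 held 100%, with the liver forms Pklr and Fbp1 at 0. Hk2 held 95.4 ± 2.52% of the hexokinases. Ldha held 98.1, 99.2, 89.4 and 93.4% of the lactate dehydrogenases, with Ldhb, the form of oxidative fibres and heart, as the rest. Glut4 (Slc2a4), the insulin-responsive glucose transporter, held 93.9 ± 0.300% of its family. Of the lactate carriers, Slc16a3, known for lactate export from glycolytic fibres, held 81.2 ± 5.39% and Slc16a1 18.8%.

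Mitochondrial and regulatory families ranged from one-sided to mixed. Cox4i1 held 99.4% and Cox6b1 99.99% of their cytochrome oxidase families, Ucp3 96.6% of the uncoupling proteins, and the AMPK subunits Prkab2 and Prkaa2 held 98.0 and 94.2%. The muscle form Cox6a2 held 97.3% of its family and Cox8b 94.0%, but Cox7a1 held 72.6 ± 1.54% with the widely expressed Cox7a2 as the rest. The 3 genes for the c subunit of ATP synthase were led by Atp5g3 with 64.3 ± 0.426%. Slc25a4 held 98.7% of its family. The muscle elongation factor Eef1a2 held 83.7 ± 1.69% over Eef1a1. Prkag3, the AMPK gamma subunit of glycolytic fibres, held 65.2 ± 6.33% of its family, and Mef2c 61.5 ± 1.23% of the MEF2 transcription factors. Myf6 held 87.9 ± 1.69% of the myogenic regulatory factors. Among 3 calpains, the muscle calpain Capn3 led with 49.7 ± 2.33%.

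The exception to a steady leader was pyruvate dehydrogenase kinase, the switch that turns off pyruvate entry into the mitochondrion. Pdk4, the fasting-responsive form, held 55.8, 43.3, 61.7 and 58.9% and Pdk2 35.9, 46.2, 29.7 and 33.1%, so Pdk2 led in replicate 2 alone. Pdk4 had 8619, 5647, 11074 and 10487 normalized reads, while Pdk2 stayed between 4799 and 5437. The family with the most variable leader was the fatty acid-binding proteins. Fabp3, the muscle form, held 84.8, 61.4, 90.3 and 90.9%, and Fabp4, the form of fat cells and capillary endothelium, made up 17.2 ± 13.5% on average. Both genes were at an extreme in replicate 2, where Fabp3 had its lowest value, 1873 normalized reads, and Fabp4 its highest, 6176. By reads not divided by length, Fabp3 held 50.5% of the family on average, and Fabp4 had more reads than Fabp3 in replicate 2. The lead of Fabp3 there thus depends on the exon lengths used.

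**Figure D3:**
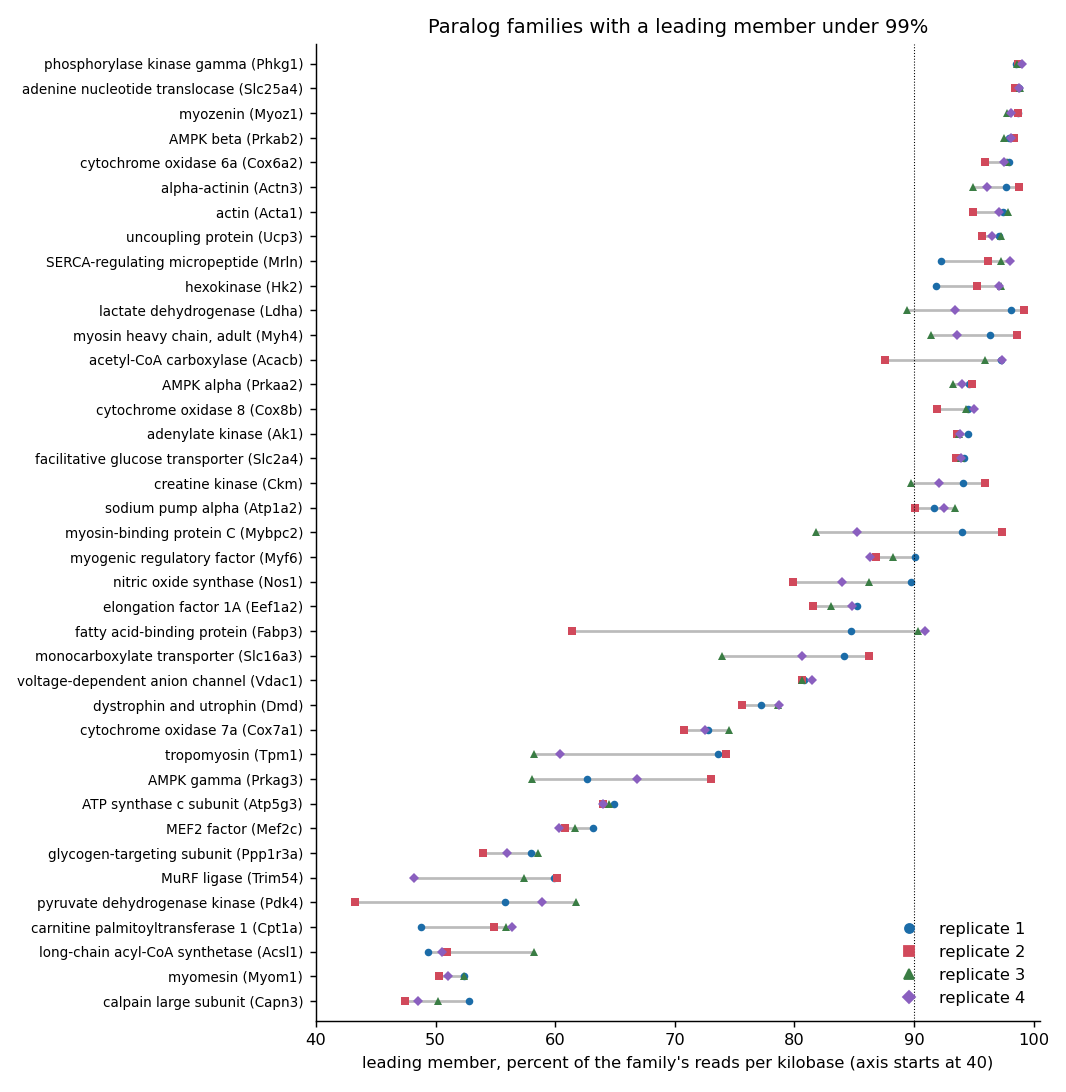
Each row is a paralog family whose leading member, named in brackets, held under 99% on average, and the points are that member's percent of the family's reads per kilobase in the 4 control libraries, joined by a grey line. The axis starts at 40% and the dotted line marks 90%; fatty acid-binding protein has the widest row, from 61.4 to 90.9%, and the voltage-dependent anion channel and ATP synthase c subunit are among the narrowest.

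Variation between control mice was small for most genes and large for a few. Over the 9690 genes with a mean of at least 100 normalized reads, the SD of the log2 values had a median of 0.127, where counting of reads alone would give 0.0607, and a 90th percentile of 0.288. An SD above 1 was found in 83 genes, or 0.857%, and these held 0.923% of reads. In contrast, 3443 genes had an SD under 0.1 and held 32.7% of reads. Ttn, Myh4 and Ckm had an SD of 0.19, 0.13 and 0.12, the first above the median and the other 2 near it. Thick filament genes were an exception as a list, with a median SD of 0.896 over 12 genes and 5 of them above 1, and this list holds the heavy and light chains of slower fibres. Z-disc genes had 5 of 37 above 1, cytosolic ribosome genes 0 of 80 and nuclear oxidative phosphorylation genes 0 of 85.

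**Figure D4:**
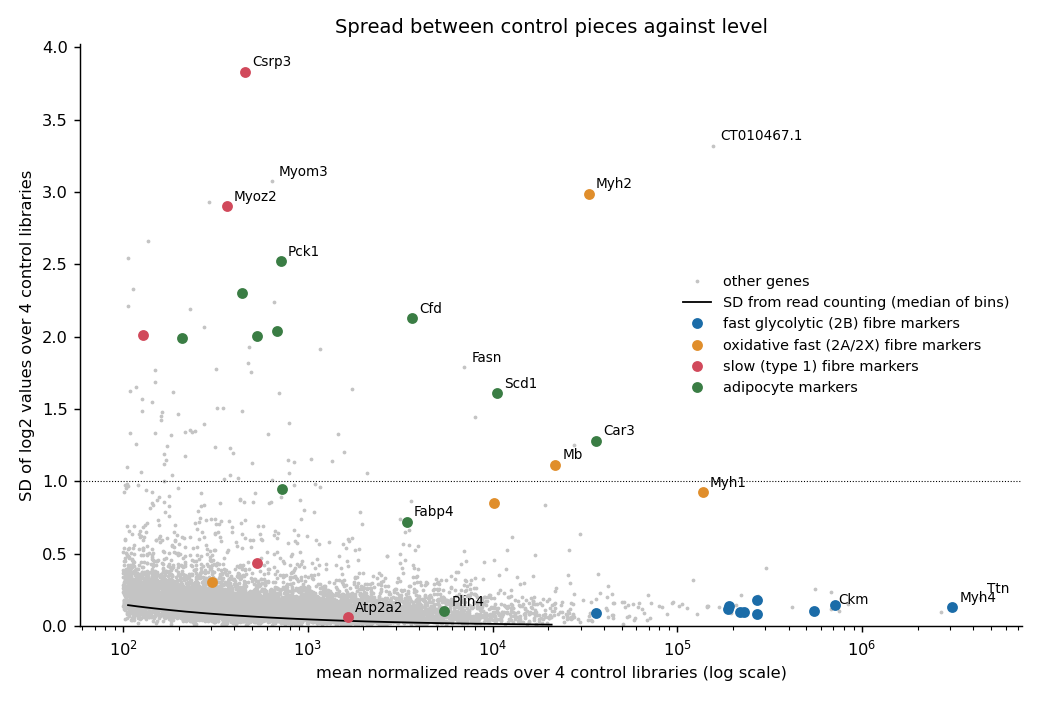
Each point is 1 of 9690 genes, with its mean normalized reads on a log axis and the SD of its log2 values over the 4 control libraries; colours mark 4 marker lists and the black line the SD expected from read counting. Fast glycolytic fibre markers lie low at the right, most adipocyte, oxidative and slow fibre markers lie above most other genes, and the dotted line marks an SD of 1.

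A first set of the most variable genes holds genes known from slow and oxidative fibres. Csrp3, a LIM protein of the Z-disc, was the most variable gene of all, with 53.3, 2.24, 501 and 1261 normalized reads and an SD of 3.83. Myh2 had 7832, 797, 73690 and 50366, an SD of 2.99. Myom3, the M-band protein of slower fibres, had 116, 13.4, 1347 and 1075, an SD of 3.07. In all 3 genes replicates 3 and 4 were high, replicate 1 was lower and replicate 2 was lowest. Myoz2, the slow fibre form of the calcineurin-binding myozenins, had 164, 7.83, 869 and 411, and Ankrd2, a stretch-responsive ankyrin repeat protein, 368, 40.3, 1137 and 1078. Bdh1, the mitochondrial enzyme that interconverts ketone bodies, had 207, 5.60, 655 and 294. The order with replicate 2 lowest held for each of these as well. Myoglobin (Mb), the oxygen store of oxidative fibres, had 18676, 6155, 37580 and 24652, an SD of 1.12, and Myh1 119090, 49067, 207420 and 173225, an SD of 0.93.

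As a list, the 5 oxidative fast fibre markers summed to 153758, 60585, 334653 and 261635 normalized reads, a highest library 5.52 times the lowest. Myh1 gave most of this sum in each library, and 2 of the 5 markers had an SD above 1. For Cox6a1, another of them, the share of its family was highest in replicate 2, at 4.10%. The 10 slow fibre markers summed to 2631, 2035, 4522 and 4064, or 0.00921% of reads. Of the slow sum, Atp2a2, a calcium pump that other cells also use, gave 1643 on average with an SD of 0.06. Of the 5 slow markers with a mean of at least 100, 3 had an SD above 1. The defining slow heavy chain Myh7 had a mean of 23.7 normalized reads, and slow troponin I (Tnni1) 12.3. The 10 fast glycolytic markers summed to 5873639, 6209724, 5188024 and 5748625, and their order was the reverse at the extremes, with replicate 2 highest and replicate 3 lowest. The ratio of Myh4 to Myh1 per kilobase was 28.1, 73.2, 14.0 and 18.5. In the same libraries nuclear mitochondrial genes and Ckmt2 were lowest in replicate 2 and highest in replicate 3. Which share of these differences came from the fibres present in each piece of muscle was not tested.

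A second set holds genes known from fat cells. Adiponectin (Adipoq), the hormone that marks adipocytes, had 224, 1738, 688 and 64.9 normalized reads. Perilipin 1 (Plin1), the coat of their lipid droplets, had 158, 1322, 586 and 56.3, and Cidec, which fuses droplets, 125, 1146, 457 and 28.1. Replicate 2 was highest and replicate 4 lowest in each. Adipsin (Cfd), a secreted complement factor, had 998, 9263, 4018 and 331, with an SD of 2.13. Pck1, which makes glycerol precursors in fat, had 99.6, 2298, 415 and 41.1, and fatty acid synthase (Fasn) 1841, 21147, 3895 and 1299. For Fasn, replicate 2 stood far above the other 3 libraries. Tmem45b, Slc36a2, Lgals12, Acvr1c, Prkar2b, Retn, Hp, Cyp2e1, Cdo1 and Ifi27l2a, the other genes of the 25 most variable with replicate 2 highest and replicate 4 lowest, had SDs from 1.78 to 2.66. They are listed here by this order alone, and Ifi27l2a belongs to the interferon-induced marker list.

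Of the 14 adipocyte markers, 11 had a mean of at least 100 normalized reads and 8 of these had an SD above 1, with a median of 1.99. The summed level was 68659, 119130, 45363 and 18810. The sum was led by Car3, an anhydrase that slow fibres also express, with 53627, 59010, 24606 and 8664. Plin4 had the same highest and lowest library with a far smaller range, 5199, 5909, 5726 and 5112, and Ucp1, which marks brown fat, was at a mean of 0.53. The Acaca share of acetyl-CoA carboxylase and the Fabp4 share of its family were also highest in replicate 2. The part of fat cells in these values was not tested.

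The order of the libraries was counted over all genes as well. Of the 100 genes with the largest SD, 43 were highest in replicate 2 and lowest in replicate 4, as Adipoq was, and so were 7.04% of all 9690 genes. Highest in replicate 3 and lowest in replicate 2, as Myh2 was, were 23 of the 100 and 15.2% of all. The order alone does not assign a gene to a cell type. Without replicate 2, 52 genes had an SD above 1 in place of 83. Of the 25 genes, 4 had neither order. Csrp3 was lowest in replicate 2 but highest in replicate 4. CT010467.1 had an SD of 3.32, with replicate 4 as the high library. Ryr2, the ryanodine receptor of heart, had 282, 120, 21.97 and 4.33 normalized reads, and Myl3, the slow fibre essential light chain, 76.4, 25.7, 395 and 16.2. Like Ryr2, the family shares of Pln, Mybpc3, Tnnt2 and Tnni3 were highest in replicate 1. Those of Mybpc3, Tnnt2 and Tnni3 were small, at most 0.0459, 0.00833 and 0.0256%. The share of cardiac actin (Actc1) was highest in replicate 2 instead. The source of this order was not tested.

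**Figure D5:**
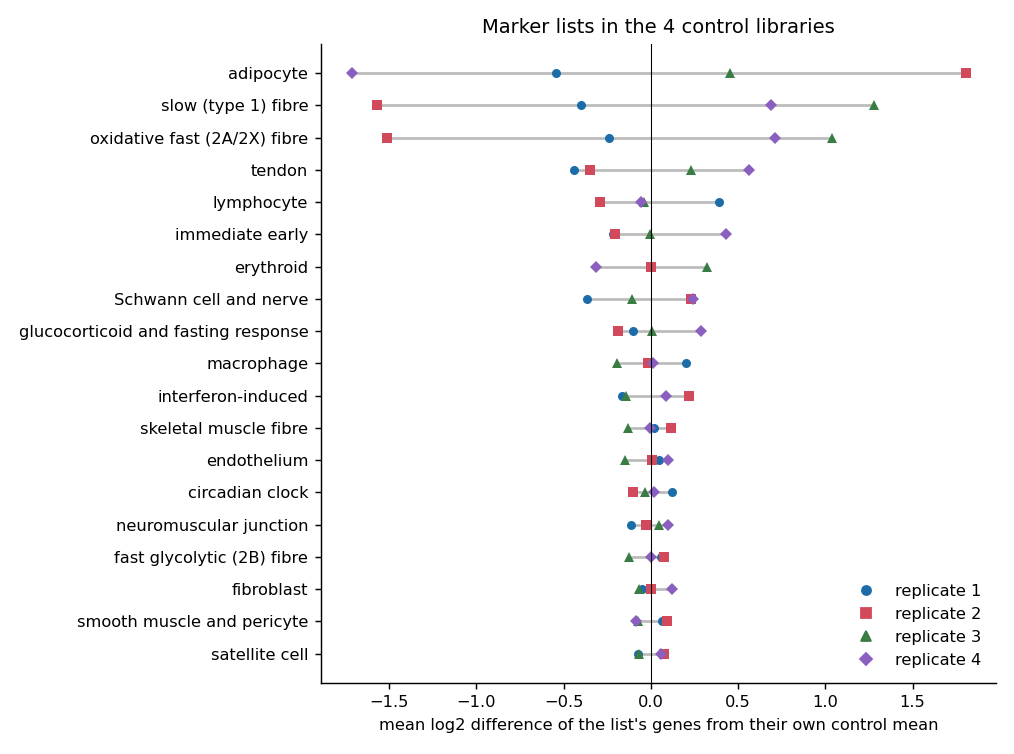
Each row is a list of marker genes and each point the mean, over the list, of the difference between a gene's log2 value in that library and its own mean over the 4 control libraries. The adipocyte list spans -1.72 in replicate 4 to 1.80 in replicate 2, and slow and oxidative fast fibre lists run from replicate 2 to replicate 3. The other lists span less, the widest of them tendon, from -0.442 in replicate 1 to 0.562 in replicate 4. The neutrophil list is not drawn.

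The Acot2 mKO libraries gave a second look at the spread, in animals that did not enter the ranking. Within those 4 libraries, 24 of 9640 genes had an SD above 1, and the median SD was 0.129. Of the 25 most variable genes in control, 9 were among the 25 most variable there, and of the leading 100, 45 were. These lists were drawn from 9690 genes in control and 9640 in the mKO libraries. The median mKO SD was 0.666 for the leading 100 and 0.130 for all genes of the control ranking. The fibre genes varied in both sets. Csrp3 had an SD of 2.02, Myom3 of 1.93, Myh2 of 1.89 and Myoz2 of 1.63 in the mKO libraries. The oxidative fast list summed to 93441, 171673, 315468 and 327582 normalized reads there. Fat cell genes had smaller SDs in the second set, with 0.32 for Pck1, 0.29 for Fasn and 0.79 for Adipoq, and a median of 0.595 over the 11 markers against 1.99 in control. CT010467.1 had an SD of 3.01. Genes picked for a large SD in control tend to have a smaller one in other animals, so no drop can be read from such genes. The difference in spread between the sets was not tested. Animal numbers of the mKO mice adjoin those of the control mice, and whether the sets were related was not tested. Acot2 itself had 149 to 251 normalized reads in the control libraries and 42.8 to 53.7 in the mKO libraries, with 27.7% of its stretches also found in other genes, mostly Acot1.

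Markers of other cell types differed in how even they were. Endothelial markers summed to 9446, 9412, 8730 and 9993 normalized reads, with a median SD of 0.109, and fibroblast markers to between 88080 and 110845. Neuromuscular junction genes summed to between 3588 and 3711. Tendon markers ranged more widely, at 7165, 7124, 8906 and 11324, with replicate 4 highest as for Col1a1. Macrophage markers summed to between 2645 and 3519. Schwann cell and nerve markers summed to 1883, 3099, 2013 and 2550, and lymphocyte markers to between 121 and 179. Neutrophil markers summed to 14.1, 1.12, 5.73 and 1.08, and 3 of 6, Mpo, Ly6g and Camp, had no read in any control library. Erythroid markers summed to between 1647 and 2603. Immediate early genes, which respond within minutes to handling of tissue, summed to between 4719 and 6002, and circadian clock genes to between 27673 and 31162.

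The steadiest genes were of another kind. Among genes with a mean of at least 1000 normalized reads, Tmpo, a nuclear envelope protein, had the smallest SD, 0.006, with 2160, 2154, 2142 and 2144 normalized reads. It was followed by the phosphatase gene Mtmr3 with 3906, 3895, 3903 and 3870 and the proteasome subunit Psmb2 with 1447, 1431, 1446 and 1440. Tpt1, the translationally controlled tumour protein, had 17168, 16957, 17192 and 17200 and an SD of 0.010. The SDs of these 4 genes lay below the SD that read counting alone would give, which was 0.0317 for Tmpo. They are the lowest of 3355 genes ranked in this way. Eef1a2, at 30328, 29948, 29100 and 29927, had an SD of 0.03.

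The promoters of the most abundant coding genes were compared with all promoters of the RefSeq table, 250 bases before each start. Of the 100 highest genes per kilobase, 77 were found in the table, with 99 starts. CAGCTG, which reads the same on both strands, occurred before 32 of the 99 starts, or 32.3% (95% Clopper-Pearson interval 23.3 to 42.5). It occurred before 4271 of all 32851 starts and before 12.3% of the 12621 starts of coding genes with a mean of at least 10 normalized reads. The MEF2 box, searched by its consensus, occurred before 5.05% of these starts (interval 1.66 to 11.4) against 0.508% of all, and the CArG box before 4.04% against 1.47%. TATAA on the gene's strand between -40 and -16 occurred before 7.07% of the starts, against 3.52% of all and 2.07% of those of expressed coding genes. TATAA on either strand anywhere in the 250 bases was found before 17.2% of these starts, 12.7% of expressed coding starts and 22.8% of all starts. Median GC content of the windows was 58.0, 59.6 and 52.4% in the same order. Starts of 1 gene share sequence, and the intervals cover counting error only. The 5 genes whose promoters are printed above are in this set, and so are Tnnc2 and Pvalb, which held none of these motifs in the 150 bases before any of their starts.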

How the data were processed

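Bulk RNA was measured in the white quadriceps of 8 mice, of which the 4 labelled Loxp/Loxp are described. Per the submitters' processing notes, FastQC, cutadapt, STAR, HTSeq and DESeq2 were used with GRCm38, in roles, order and versions not stated. Which gene models lay behind the counts was not given in the sources used here. Deposited values, whose unit no label states, behaved as the log2 of x + 1, where x is a read count divided by 1 factor per library. With the log undone, 100% of values under 1000 reads lay within 0.1 of a whole multiple of the smallest value, which gave back the reads and the depth. Depth ran from 33112406 to 36234859 reads per library.

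From x, called normalized reads, shares per library were computed with Python 3.11.15, numpy 2.4.6, pandas 2.3.3, scipy 1.17.1 and matplotlib 3.10.9, for 23 gene classes, 59 paralog families and 20 marker lists written by hand. Lengths are merged exons of GENCODE M21 on GRCm38, to which 53098 genes were matched by symbol or, failing that, by NCBI gene number or alias. The 993 others held 0.0271% of reads, and 27 gene names turned into dates were restored. Shared sequence is the percent of a gene's 50-base exon stretches also found, on either strand, in another gene. Shares per kilobase over nuclear protein-coding genes were added after seeing the data. Spread is the SD of the deposited log2 values, which contain a pseudocount of 1, for genes with a mean of at least 100. The expected counting SD comes from the recovered reads. In simulated libraries, 200 of 9690 genes were given an SD of 1 and all others the same lower SD. Of the 200 genes, 96.5% were among the 200 most variable, with a median measured SD of 0.873. The spread of real genes is not that even, so the simulation does not show how well the ranking works here.

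The members and lists were chosen with earlier results of these data known. Genes named were the 30 highest by reads and per kilobase, the leading 3 of each class, the leading 2 of each paralog family, the 25 most and 10 least variable, up to 4 per marker list, and Ttn, Myh4 and Ckm. Other names, such as the further steps of glycolysis, Des, Tcap and the mitochondrial messengers, were chosen after their values were seen. The nearest pair of libraries differed by a chi-square of 40.6 per gene. No p-value was computed.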

Additional observations from a re-analysis of the deposited data

Results flagged for a closer look

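In a group of 4 mice a value was marked when its gap to the nearest other mouse was too large a part of the whole range by Dixon's 95% critical value. Chance marks about 1 in 20 groups, and 12 of 229 values tested, or 5.24%, were marked, so the number as a whole is near that share.

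Control replicate 2 held 7 of them. Fasn was at 21147 normalized reads there against at most 3895 in the other mice, Acaca, the first enzyme of fatty acid synthesis in fat, at 3272 against at most 909, and Pck1 at 2298 against at most 415. The share of Acacb among the acetyl-CoA carboxylases was 87.6%, where the other mice lay between 96.0 and 97.4%. Gys1, glycogen synthase, was low at 9120 against 10704 to 10912, Tpt1 at 16957 against 17168 to 17200, and the summed neuromuscular junction markers at 3588 against 3698 to 3711.

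Control replicate 4 was the high library for CT010467.1, at 593792 against at most 18567, and for Col1a1, at 27029 against at most 14072. Replicate 3 was high for Myl3, at 395 against at most 76.4, and low for the Myl1 share of the essential light chains, at 99.4% against 99.6%. Replicate 1 was high for Capn3, at 5419 against 4908 to 4930.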

How the results depend on the processing

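Leaving out each mouse in turn gave 34.96 to 36.2% of reads for the sarcomere, 2.87 to 3.10% for glycolysis and lactate, 11.3 to 11.7% for the mitochondrial genome, 3.02 to 3.39% for nuclear mitochondrial genes, 23 to 25 genes holding 50% of reads, 39 to 40 families with a leader of at least 90%, 52 to 106 genes with an SD above 1, and 13 to 23 of the 25 most variable genes in common. With the mitochondrial genome left out, the sarcomere took 40.3% and glycolysis 3.38% of reads, and 37 genes held 50%; per kilobase 14 did. Per kilobase over all genes, the sarcomere (23.2%) moved to 30.9% without the mitochondrial genome, 24.6% with the longest transcript as length and 35.6% over nuclear coding genes, glycolysis (3.48%) to 4.64, 4.42 and 5.33%, and nuclear mitochondrial genes (4.40%) to 5.88% in the first case and 6.74% in the last. The mitochondrial genome (25.02%) moved to 21.1% with the longest transcript. These moves follow from the change of denominator or length.

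The count of genes with an SD above 1, 83 of 9690, depended most on the filter, which also sets how many genes are counted. It was 337 of 13612 genes with a mean of at least 10, 2252 with no filter and 16 of 3355 genes with a mean of at least 1000. These lists shared 9, 9 and 5 of the 25 most variable genes with the list reported. Without replicate 2 the count was 52, with 16 genes shared, and without replicate 4 the lists shared 13. Within the Acot2 mKO libraries, added after seeing the data, it was 24, with 9 shared. By reads in place of reads per kilobase, Trim63, and not Trim54, led the MuRF ligases, with 49.4%.

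No paired analysis was run because a single group is described. The animal number of each control mouse adjoins that of an Acot2 mKO mouse. The labels name no litter or cage, and whether adjoining mice were related was not tested. Protein identity between paralogs was not run. Depth limits genes with few reads, where the counting SD nears the SD measured. Exon models and shared sequence limit single genes and class sums alike, the mitochondrial genome among them, and 4 mice give an SD of low precision.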
